A study of Homo sapiens with 24 samples.

Results

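The response of non-target control (NTC) cells to heregulin (HRG) was taken from the 6 NTC arrays among 24: all 3 arrays titled as NTC RNAi with HRG, and all 3 titled as NTC RNAi without HRG. NTC cells are T-47D cells, an established line of luminal human breast cancer, that carried a control siRNA against no known transcript, introduced by transient lipid transfection. The other 18 arrays hold untransfected parental T-47D cells and T-47D cells with either of 2 siRNA duplexes against P-Rex1 (P-Rex1 RNAi #1 and #2), each with HRG or vehicle, 3 arrays per group. All groups were serum starved before treatment, the RNAi groups for 48 h beginning 16 h after transfection, and then received HRG at 20 ng/ml or PBS vehicle for 6 h. The text of the study leaves the starvation time of the parental cells open, its methods name both a single control duplex and a control pool without saying which served for the arrays, and every array comes from 1 cell line. Expression was read on Affymetrix Human Gene 1.0 ST arrays, which carry probes along the transcripts, as log2 RMA expression. Of 28536 probe sets, 21042 were paired with at least 1 gene symbol and were tested, and 19292 of these were paired with exactly 1. Levels below are log2 RMA expression of single arrays in replicate order, and each effect is the mean with HRG minus the mean with vehicle on that scale, so that an effect of 1 is a 2-fold difference.

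HRG, the product of NRG1, is a ligand of the receptor tyrosine kinase ErbB3, which signals as a heterodimer with ErbB2. The receptor pair activates the PI3K/Akt pathway, which holds FOXO transcription factors out of the nucleus, and the Ras/ERK pathway, which induces transcription factors and, in turn, a layer of phosphatases and adaptor proteins that damp ERK. P-Rex1, encoded by PREX1, is an exchange factor for the small GTPase Rac1 that acts downstream of ErbB3 in luminal breast cancer cells, and NTC cells are the transfected reference for its depletion.

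All 18 luminal breast epithelial markers lay above the array median (between 6.04 and 6.18 over the 24 arrays) on every NTC array. Of the other lists, 9 of 12 fibroblast, 10 of 13 leukocyte and 9 of 12 endothelial markers lay below it on every NTC array. On every NTC array 3 fibroblast and 2 endothelial markers lay above it. The mean level of the luminal list was 10.61 to 10.67 with HRG and 10.65 to 10.71 with vehicle, that of the fibroblast list 5.31 to 5.34 with HRG and 5.19 to 5.22 with vehicle, that of the leukocyte list 4.87 to 4.99 with HRG and 4.79 to 4.85 with vehicle, and that of the endothelial list 5.0 to 5.04 with HRG and 4.86 to 4.94 with vehicle. Of the luminal list 3 markers were called lower, ESR1, ERBB3 and PGR. No fibroblast or endothelial marker was called, although 1 fibroblast marker was called higher without the third HRG array, and CD68, which cells other than macrophages also carry in their lysosomes, was the one leukocyte marker called. In a principal component analysis of the 6 NTC arrays the first component took 79.2% of the variance and separated HRG (18.81 to 28.39) from vehicle (-23.63 to -21.03). The second took 9.05% and set the third HRG array (-12.95) apart from the other HRG arrays (5.69 and 10.48). That array is 1 of the 4 with the highest scores on the second component of all 24, so the counts of called genes in a list are given without it where they move. The number 4 was chosen without a rule. The first HRG array with P-Rex1 RNAi #2 lay as far out on the other side (-11.70) as the fourth of them (11.25).

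HRG changed 1264 probe sets in NTC cells, 6.01% of those tested, at a Benjamini-Hochberg adjusted p under 0.05 by limma and a change over 1.5-fold, which is what "called", "rose" and "fell" mean throughout. Of these, 555 rose (2.64%), from 509 genes, and 709 fell (3.37%), from 660 genes, counting genes with a single-symbol probe set. The counts of called genes in the lists below are to be read beside these shares. The lists were chosen with earlier results of these data known, so a share above these is a description and not a test. Adjusted p alone passed 2867 higher (13.6%) and 3702 lower (17.6%) probe sets. The median effect over all probe sets was 0.03. Rises reached further than falls, with 168 probe sets (0.798%) more than 2-fold higher and 17 (0.0808%) more than 4-fold higher, against 100 (0.475%) and 4 (0.019%) lower. Rising probe sets had a median level of 7.48 with vehicle and a median fold of 1.74, and falling ones 8.23 and 1.66. All but 1 of the 555 and all but 1 of the 709 had HRG arrays that did not overlap the vehicle arrays, a separation that 5037 probe sets (23.9%) showed upward and 4939 (23.5%) downward. The share of calls that rose was 43.9%, and with each array's median subtracted it was 33.6% (458 rising, 907 falling), because that scaling moves the median of all probe sets by -0.05. The third HRG array was the one farthest from the vehicle mean in 544 of the 709 falling probe sets (76.7%) and in 324 of the 555 rising ones (58.4%). Without it 530 probe sets rose and 571 fell. With 3 arrays against 3, an exact permutation test of a single gene cannot give a two-sided p under 0.1, so adjusted p-values are from the model across all probe sets.

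**Figure D1:**
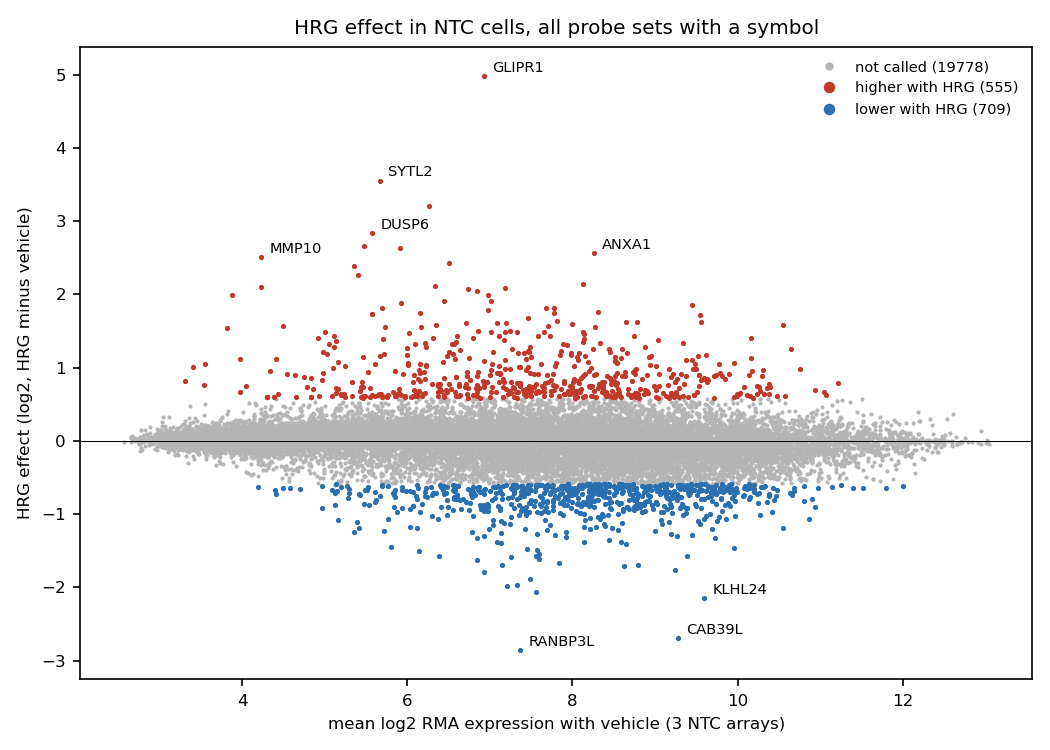
HRG effect in NTC cells (log2, HRG minus vehicle, vertical axis) against the mean log2 RMA expression with vehicle (horizontal axis) for the 21042 probe sets with a symbol, 1 point each. The 555 rising probe sets (red) reach farther from 0 than the 709 falling ones (blue), with GLIPR1 at the top and RANBP3L at the bottom.

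The largest rise was that of GLIPR1, a secreted-type protein of the CAP superfamily first described in glioma, at 11.90, 11.82 and 12.02 with HRG, against 6.81, 6.92 and 7.05 with vehicle. The groups lay 31.7-fold apart, with an effect of 4.99 ± 0.20 (SE), adjusted p = 7.56e-14. SYTL2, a synaptotagmin-like effector of Rab27 in vesicle exocytosis, stood at 9.34, 9.29 and 9.05 with HRG, against 5.66, 5.76 and 5.59 with vehicle, an effect of 3.55 ± 0.11 (SE), adjusted p = 1.2e-15. A probe set shared by GBP1, GBP3 and the pseudogene GBP1P1, which encode or resemble interferon-induced guanylate-binding proteins and cannot be told apart by it, stood at 9.07, 9.53 and 9.79 with HRG, against 6.29, 6.14 and 6.35 with vehicle, an effect of 3.20 ± 0.16 (SE), adjusted p = 2.31e-12. All HRG arrays of these 3 probe sets lay above all vehicle arrays.

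Among the next largest rises were genes of feedback, adhesion, lipid handling and secretion. DUSP6, the cytoplasmic phosphatase that dephosphorylates ERK, stood at 8.08, 8.46 and 8.69 with HRG, against 5.25, 5.75 and 5.71 with vehicle, an effect of 2.84 ± 0.25 (SE), adjusted p = 1.1e-08. GPAT3, an acyltransferase that opens the synthesis of glycerolipids, stood at 7.95, 8.05 and 8.44 with HRG, against 5.40, 5.59 and 5.45 with vehicle, an effect of 2.67 ± 0.14 (SE), adjusted p = 4.2e-12. ITGB6, the integrin subunit that forms the epithelial receptor αvβ6, stood at 8.43, 8.55 and 8.66 with HRG, against 5.83, 5.93 and 5.98 with vehicle, an effect of 2.63 ± 0.11 (SE), adjusted p = 2.78e-13. The first HRG array was the lowest of the HRG arrays for all 3, and the groups did not overlap. ANXA1, a calcium-dependent phospholipid-binding protein, stood at 10.86, 10.91 and 10.69 with HRG, against 8.14, 8.31 and 8.32 with vehicle, an effect of 2.56 ± 0.092 (SE), adjusted p = 1.97e-14. MMP10, or stromelysin-2, a secreted protease of the extracellular matrix, stood at 6.64, 6.64 and 6.92 with HRG, against 4.21, 4.26 and 4.22 with vehicle, an effect of 2.51 ± 0.19 (SE), adjusted p = 1.38e-09. All its vehicle arrays lay under the lowest 25% quantile of an array (4.27), where RMA values are compressed. The vehicle means of MMP1, EPGN and MET, described below, lay under it too. The sizes of the effects of MMP10 and of these genes are therefore less certain than those of brighter genes. The other 13 of the 20 single-symbol genes with the largest rises lay between 1.91 and 2.44: LOC151760 (2.44), the microtubule-associated MAP1B (2.39), the acute-phase serpin SERPINA3 (2.27), the sphingosine-1-phosphate exporter SPNS2 (2.15), SERPINB8 (2.12), the EGF receptor ligand EPGN (2.10), the interleukin-6 receptor IL6R (2.09), the microRNA gene MIR21 (2.08), the Src family kinase LYN (2.05), interstitial collagenase MMP1 (2.0), the tensin TNS4 (2.0), the NKG2D ligand RAET1L (1.91) and the cornified envelope precursor SPRR1A (1.91). The largest adjusted p among these 20 was 2.53e-07.

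MIR21 was the only one of 173 microRNA genes with a single-symbol probe set that rose, and none fell. The probes read RNA of the hairpin gene, not the mature microRNA, and 90 of the 173 had a vehicle mean under the lowest 25% quantile of the arrays (4.27), where a change can hardly show. MIR21 stood at 8.59, 8.76 and 9.08 with HRG, against 6.85, 6.37 and 6.97 with vehicle, an effect of 2.08 ± 0.23 (SE), adjusted p = 2.53e-07, and the groups did not overlap. The mature product of its 5′ arm, the strand that enters the silencing complex most often, is given because MIR21 was the only microRNA gene called, with the seed (bases 2 to 8) that pairs with targets in capitals, from RefSeq on GRCh38.p14 at chr17:59841273-59841294, plus strand.
hsa-miR-21-5p: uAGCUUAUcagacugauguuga

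The largest fall was that of RANBP3L, which binds the GTPase Ran, at 4.55, 4.65 and 4.32 with HRG, against 7.48, 7.31 and 7.30 with vehicle. The groups lay 7.25-fold apart, with an effect of -2.86 ± 0.16 (SE), adjusted p = 1.51e-11. CAB39L, or MO25β, a scaffold of the LKB1 kinase complex, stood at 6.82, 6.73 and 6.21 with HRG, against 9.32, 9.23 and 9.29 with vehicle, an effect of -2.69 ± 0.14 (SE), adjusted p = 3.9e-12. KLHL24, a Kelch-like adaptor of a ubiquitin ligase, stood at 7.52, 7.53 and 7.29 with HRG, against 9.65, 9.51 and 9.62 with vehicle, an effect of -2.15 ± 0.085 (SE), adjusted p = 7.28e-14. In all 3 the third HRG array was the lowest, and no HRG array reached a vehicle array. The other 17 of the 20 largest falls lay between -2.07 and -1.54. Among them were the membrane-associated scaffold DLG2 (-2.07), the teneurin TENM2 (-1.96), the kinase A anchoring protein AKAP6 (-1.89), MDGA2 (-1.79), the ankyrin ANK3 (-1.66), the cadherin CDH10 (-1.54), PLEKHS1 (-1.98), the forkhead factor FOXN3 (-1.76), the adaptor BLNK (-1.69), the metalloreductase STEAP4 (-1.69), TMEM229B (-1.63), the kinase LRRK2 (-1.59), the acyl-CoA thioesterase ACOT6 (-1.57), VEPH1 (-1.57) and GRAMD1C (-1.56). NR1D2, the nuclear receptor Rev-erbβ of the circadian clock, stood at 6.73, 7.07 and 6.94 with HRG, against 8.56, 8.62 and 8.68 with vehicle, an effect of -1.71 ± 0.089 (SE), adjusted p = 3.74e-12. The remaining member of the 20 was a probe set (-1.61) of CFLAR, the caspase-8 inhibitor c-FLIP, whose brightest probe set was not called. It is described with the comparison to parental cells. The largest adjusted p among the 20 falls was 2.1e-05.

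**Figure D2:**
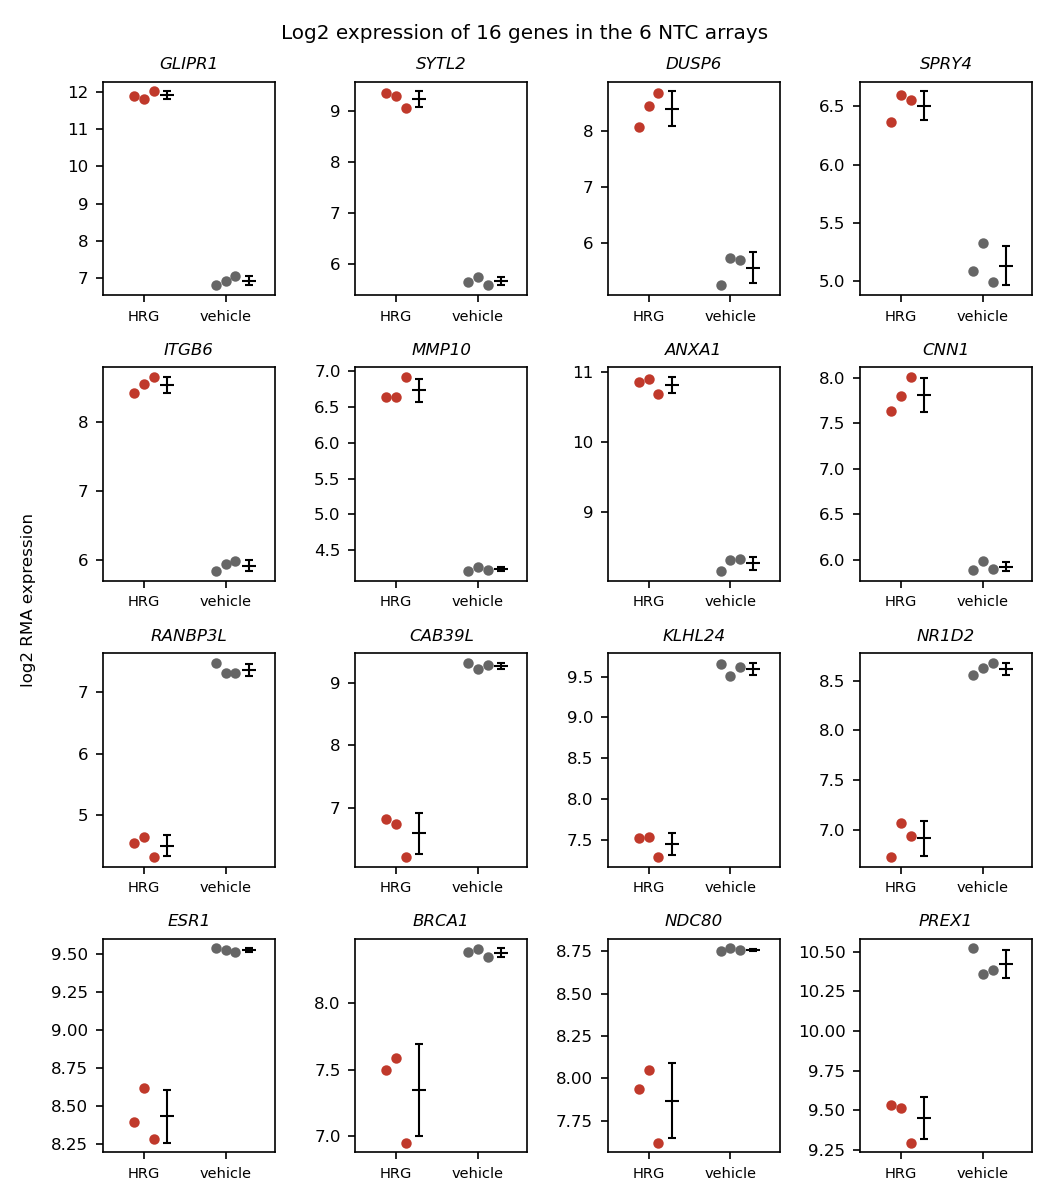
Log2 RMA expression (vertical axis, scaled per gene and not starting at 0) of 16 genes in the 3 HRG (red) and 3 vehicle (grey) arrays of NTC cells, with the mean ± SD beside each group. Of the 16, 8 rose and 8 fell, no pair of groups overlaps, and among the 8 that fell the third HRG array is the lowest for all except NR1D2.

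Genes of the ErbB receptors and of their inhibitors changed in both directions. Of 16 measured, 1 rose and 4 fell (median 0.04), and 3 fell without the third HRG array. ERBB3, the receptor HRG binds, stood at 9.37, 9.32 and 9.25 with HRG, against 10.08, 10.07 and 10.03 with vehicle, an effect of -0.75 ± 0.057 (SE), adjusted p = 1.23e-09. ERBB4, the second HRG receptor, stood at 8.75, 8.86 and 8.80 with HRG, against 9.51, 9.42 and 9.49 with vehicle, an effect of -0.67 ± 0.065 (SE), adjusted p = 3.88e-08. ERBB2, the signalling partner of ErbB3, was at 9.10, 9.09 and 8.99 with HRG, against 9.09, 9.04 and 9.01 with vehicle, with overlapping groups and an effect of 0.01 ± 0.058 (SE), adjusted p = 0.907. That of EGFR was 0.31 ± 0.062 (SE), adjusted p = 0.000429, which is under 1.5-fold. LRIG1 and LRIG3, transmembrane proteins of the family that restrains receptor tyrosine kinases, had effects of -1.10 (adjusted p = 8.85e-11) and -0.64 (adjusted p = 5.91e-07). ERRFI1, or MIG6, an inducible inhibitor of EGFR kinase activity, stood at 9.42, 9.56 and 9.84 with HRG, against 8.50, 8.45 and 8.67 with vehicle, an effect of 1.07 ± 0.15 (SE), adjusted p = 5.15e-06. The HRG receptors and LRIG genes fell while ERRFI1 rose, and their groups did not overlap.

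Of 15 EGF family ligands and sheddases, 3 rose and 2 fell (median 0.09). The rising members, EPGN (epigen), HBEGF (heparin-binding EGF) and EREG (epiregulin), are all ligands of EGFR, and HBEGF and EREG bind ErbB4 as well. HBEGF stood at 8.43, 8.72 and 8.85 with HRG, against 7.31, 7.14 and 7.12 with vehicle, an effect of 1.48 ± 0.13 (SE), adjusted p = 1.1e-08. EREG stood at 6.06, 6.39 and 6.24 with HRG, against 5.17, 5.05 and 5.25 with vehicle, an effect of 1.07 ± 0.16 (SE), adjusted p = 1.03e-05. The falling members were NRG4, an ErbB4 ligand (-0.90, adjusted p = 1.08e-05), and EGF (-0.60, adjusted p = 1.34e-05), and without the third HRG array 1 gene of the list was called lower. NRG1, which encodes HRG itself, was at 4.31, 4.30 and 4.40 with HRG, against 4.25, 4.35 and 4.28 with vehicle, close to the lowest 25% quantile of an array, with an effect of 0.05 ± 0.062 (SE), adjusted p = 0.636.

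Inhibitors that ERK signalling induces rose in part, and no member fell. Of 11 MAP kinase phosphatases 4 rose (median 0.35), and of 7 Sprouty and Spred genes, whose products block the path from receptor to Raf, 4 rose (median 0.61). In each list 3 rose without the third HRG array. Besides DUSP6 these were DUSP4, a nuclear phosphatase, at 7.80, 8.15 and 8.14 with HRG, against 6.59, 6.79 and 6.40 with vehicle, an effect of 1.43 ± 0.14 (SE), adjusted p = 3.13e-08, with DUSP7 (0.68) and DUSP1 (0.61). SPRY4 stood at 6.36, 6.60 and 6.56 with HRG, against 5.08, 5.32 and 4.99 with vehicle, an effect of 1.37 ± 0.15 (SE), adjusted p = 2.38e-07, and SPRED1 (1.12), SPRED2 (0.83) and SPRY2 (0.61) were the other members called. DUSP1 was called at adjusted p = 0.0115, with a vehicle array (8.29) near the lowest HRG array (8.47).

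Transcription factors of the early response rose in part at 6 h, with 7.1% of AP-1 subunits, 21.1% of immediate early genes, 11.1% of ETS factors and 26.7% of Kruppel-like factors called higher, next to 2.64% of all probe sets. Of 14 AP-1 subunits only JUNB rose (0.65 ± 0.086 (SE), adjusted p = 3.3e-06). FOS was at 6.22, 6.27 and 6.56 with HRG, against 6.12, 6.20 and 6.23 with vehicle, an effect of 0.17 ± 0.081 (SE), adjusted p = 0.118, and JUN had an effect of 0.12 ± 0.14 (SE), adjusted p = 0.562. Of 19 immediate early genes 4 rose, the pseudokinase TRIB1 (1.49), the matricellular protein CCN1 (0.95), IER3 (0.92) and KLF10 (0.85), with a list median of 0.35, and EGR1 had an effect of 0.35 ± 0.15 (SE), adjusted p = 0.0765. MYC, a growth factor target in many cells, was at 7.83, 8.21 and 8.09 with HRG, against 8.0, 8.13 and 8.0 with vehicle, an effect of 0.00 ± 0.094 (SE), adjusted p = 0.992. Among 18 ETS factors ETS2 stood at 7.52, 7.81 and 7.86 with HRG, against 6.23, 6.10 and 6.18 with vehicle, an effect of 1.56 ± 0.10 (SE), adjusted p = 1.52e-10, and ETV4 was also called (0.61) but not without the third HRG array, which leaves 1 of the list called. Of 15 Kruppel-like factors 4 rose, led by KLF4 (1.38), a regulator of epithelial differentiation, with KLF6 (0.77), KLF10 and KLF13 (0.78, whose dimmer probe set was at 0.08 and not called), and KLF11 fell (-0.87).

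Serum response factor (SRF) and its actin-regulated coactivators of the MRTF family drive genes of the contractile and adhesive cytoskeleton, and 15 of 33 listed targets rose while none fell (median 0.51, against 0.03 over all probe sets). CNN1, the actin-binding calponin 1, stood at 7.63, 7.79 and 8.01 with HRG, against 5.89, 5.98 and 5.90 with vehicle, an effect of 1.89 ± 0.095 (SE), adjusted p = 2.72e-12. ZYX, the focal adhesion protein zyxin, stood at 9.41, 9.65 and 9.70 with HRG, against 7.84, 7.80 and 7.70 with vehicle, an effect of 1.81 ± 0.085 (SE), adjusted p = 1.09e-12. VCL, vinculin, which ties integrin complexes to actin, stood at 11.14, 11.21 and 11.18 with HRG, against 9.60, 9.54 and 9.51 with vehicle, an effect of 1.62 ± 0.062 (SE), adjusted p = 5.76e-14. All HRG arrays of these genes lay above all vehicle arrays. The other 12 were CALD1 (1.79), PDLIM5 (1.26), CSRP1 (1.25), FHL2 (1.21), ACTG2 (1.19), ACTA2 (1.18), MYH9 (1.06), MYL9 (1.04), ITGA5 (0.98), CAPN2 (0.96), TPM1 (0.85) and PDLIM7 (0.78), that is actins, myosin chains, LIM domain proteins and an integrin. SRF itself had an effect of 0.27 ± 0.087 (SE), adjusted p = 0.0223, under 1.5-fold. Of 25 YAP and TEAD targets 4 rose, TGFB2 (1.76), DOCK5 (1.18), CCN1 (0.95) and FJX1 (0.67), and CCN2 had an effect of 0.38 ± 0.097 (SE), adjusted p = 0.00359, also under 1.5-fold.

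The CArG box, the sequence SRF binds, was looked for on both strands in the 250 bases before each gene's start in RefSeq (GRCh38.p14). Here and for the motifs below, only genes with a promoter in that table are counted. These are 387 of 505 rising, 551 of 654 falling and 14208 of 18374 tested genes, each called by its brightest probe set. GLIPR1, SYTL2 and MMP1 have none. The box was present in 8 of 30 SRF and MRTF targets (26.7%) and in 3 of the 14 of these that rose (21.4%). It was present in 9 of 387 rising genes (2.33%), 5 of 551 falling genes (0.907%) and 166 of 14208 genes tested (1.17%). The list was drawn up from known SRF targets, so its share is a description. Upstream stretches of ACTG2, smooth muscle γ-actin, and of ITGB6, which is not on the list, are given because both rose and hold the box close to the start (100 and 63 bases from it in ACTG2, 50 in ITGB6), with the boxes in capitals.
ACTG2, chr2:73892758-73893007, plus strand: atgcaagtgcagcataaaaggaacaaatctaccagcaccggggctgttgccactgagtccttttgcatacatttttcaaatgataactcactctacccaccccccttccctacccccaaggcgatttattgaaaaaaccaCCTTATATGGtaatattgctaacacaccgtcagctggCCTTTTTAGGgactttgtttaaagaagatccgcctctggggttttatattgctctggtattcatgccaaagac
ITGB6, chr2:160200273-160200522, minus strand: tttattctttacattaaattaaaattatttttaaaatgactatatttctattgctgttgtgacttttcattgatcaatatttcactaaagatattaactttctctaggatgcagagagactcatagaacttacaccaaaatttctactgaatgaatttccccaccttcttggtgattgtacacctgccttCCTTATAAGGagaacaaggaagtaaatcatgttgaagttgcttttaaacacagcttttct

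Cell adhesion and matrix-degrading genes rose in part. Of 18 integrin subunits 5 rose and none fell. Besides ITGB6 they were the collagen receptor subunit ITGA2, at 11.23, 11.29 and 11.41 with HRG, against 9.48, 9.48 and 9.39 with vehicle, an effect of 1.86 ± 0.099 (SE), adjusted p = 4.82e-12, and ITGA5 (0.98), ITGA3 (0.77) and ITGA6 (0.71). ITGAV, the partner of ITGB6, had an effect of 0.07 ± 0.047 (SE), adjusted p = 0.327. Of 33 collagens, laminins and other matrix proteins 2 rose, SDC1 (0.71) and LAMB3 (0.64), and 3 rose without the third HRG array. Of 21 matrix metalloproteinases and their inhibitors 3 rose and 1 fell (-0.76). MMP1 stood at 5.86, 6.14 and 5.63 with HRG, against 3.92, 3.76 and 3.95 with vehicle, an effect of 2.0 ± 0.11 (SE), adjusted p = 1.16e-11, with all vehicle arrays under the lowest 25% quantile of an array (4.27). Its inhibitor TIMP1 stood at 10.39, 10.36 and 10.49 with HRG, against 8.75, 8.60 and 9.01 with vehicle, an effect of 1.63 ± 0.14 (SE), adjusted p = 1.23e-08. MMP1, MMP10 and TIMP1 rose side by side. The dimmer probe set of the metalloproteinase MMP16, named again with the comparison to parental cells, fell (-1.17, adjusted p = 0.000527). MMP3, which neighbours MMP1 and MMP10 in the genome, was at 4.0, 4.17 and 4.48 with HRG, against 3.94, 3.74 and 4.10 with vehicle. Its effect was 0.29 ± 0.12 (SE), adjusted p = 0.0674. MMP2 and MMP9, the gelatinases, had effects of 0.20 (adjusted p = 0.144) and 0.16 (adjusted p = 0.106). Of 29 plasminogen activators, cathepsins and serpins 6 rose and none fell, including urokinase PLAU (0.80) and its receptor PLAUR (0.63), with SERPINA3 (2.27), SERPINB8 (2.12), CTSV (1.39) and SERPINE2 (0.91), and without the third HRG array 5 rose.

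Of 28 keratin, cornified envelope and desmosome genes 13 rose and none fell (median 0.47), and 12 rose without the third HRG array. SPRR1A, a crosslinked precursor of the cornified envelope, stood at 8.21, 8.08 and 8.77 with HRG, against 6.48, 6.51 and 6.36 with vehicle, an effect of 1.91 ± 0.20 (SE), adjusted p = 1.25e-07. KRT15 stood at 8.63, 8.77 and 9.0 with HRG, against 7.19, 7.23 and 7.16 with vehicle, an effect of 1.61 ± 0.11 (SE), adjusted p = 2.06e-10. The other members were KRT13 (1.36), KRT80 (1.25), PPL (1.21), KRT7 (1.16), SPRR3 (1.0), SFN (0.84), DSC2 (0.75), KRT23 (0.70), DSG2 (0.64), KRT16 (0.62) and PKP3 (0.61), keratins of stratified and simple epithelia, plakin, desmosome proteins and 14-3-3σ. The luminal keratins KRT8, KRT18 and KRT19, among the brightest probe sets with vehicle, had effects of 0.11, 0.39 and 0.10 and were not called, nor were the basal keratins KRT5 (0.16) and KRT14 (0.36). Among 19 cadherins and regulators of epithelial-mesenchymal transition none rose and CDH10 fell. CDH1, E-cadherin, was at 11.67, 11.68 and 11.64 with HRG, against 11.61, 11.61 and 11.56 with vehicle, an effect of 0.07 ± 0.045 (SE), adjusted p = 0.282, and VIM, vimentin, was at 6.07, 5.89 and 7.39 with HRG, against 5.92, 5.78 and 6.81 with vehicle, with overlapping groups. Of 14 claudins and tight junction genes CLDN7 (0.65) rose and CLDN8 (-0.83) and TJP3 (-0.73) fell.

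The AP-1 site TGAGTCA, on either strand, stood in the same 250 bases of 27 of 387 rising genes (6.98%), 10 of 551 falling genes (1.81%), 437 of 14208 genes tested (3.08%) and 1136 of all 27305 promoters in the table (4.16%). Upstream stretches of SERPINB8 and SPRR1A are given because both are among the 20 largest rises and hold the site, 21 and 101 bases before the start, in capitals. A match shows that the letters are there and not that a factor binds.
SERPINB8, chr18:63969831-63970080, plus strand: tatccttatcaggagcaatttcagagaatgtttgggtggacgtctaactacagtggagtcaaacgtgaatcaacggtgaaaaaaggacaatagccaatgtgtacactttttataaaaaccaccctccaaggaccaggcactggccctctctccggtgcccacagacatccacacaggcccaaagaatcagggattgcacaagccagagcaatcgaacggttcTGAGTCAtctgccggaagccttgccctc
SPRR1A, chr1:152983831-152984080, plus strand: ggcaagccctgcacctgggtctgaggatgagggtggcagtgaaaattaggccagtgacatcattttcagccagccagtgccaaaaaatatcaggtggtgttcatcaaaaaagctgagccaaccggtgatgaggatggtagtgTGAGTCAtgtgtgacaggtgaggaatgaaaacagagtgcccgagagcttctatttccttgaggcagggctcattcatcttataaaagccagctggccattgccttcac

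Genes of inflammatory signalling rose in part. Of 32 NF-κB subunits and targets 8 rose and none fell (median 0.18): the ubiquitin-editing inhibitor TNFAIP3 (1.16), the kinase MAP3K14 (1.04), the adhesion molecule ICAM1 (0.95), the subunits NFKB2 (0.81) and RELB (0.68), IRF1 (0.72) and TNFAIP2 (0.67) and CSF1 (0.66). Without the third HRG array 6 rose. TNFAIP3 stood at 6.78, 6.81 and 6.91 with HRG, against 5.59, 5.75 and 5.67 with vehicle, an effect of 1.16 ± 0.092 (SE), adjusted p = 1.91e-09. Of 16 IL-6 family members 3 rose, IL6R at 9.06, 9.26 and 9.49 with HRG, against 7.09, 7.16 and 7.29 with vehicle, an effect of 2.09 ± 0.13 (SE), adjusted p = 4.95e-11, with LIF (1.11) and LIFR (0.67). IL6 and CXCL8 were dim, with effects of 0.03 (adjusted p = 0.815) and 0.09 (adjusted p = 0.475). Of 20 chemokines and receptors CXCR4 (0.87) rose and CCL28 (-0.84) and the CXCR4 ligand CXCL12 (-0.65) fell. Of 8 NKG2D ligands, stress proteins that natural killer cells recognise, RAET1L (1.91), ULBP3 (1.34) and ULBP2 (0.68) rose. RAET1L and the ULBP genes are near-identical copies in places, and cross-hybridisation between them was not tested.

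Some receptors and ligands of other growth and guidance pathways rose as well. EPHA2, an ephrin receptor, stood at 7.32, 7.56 and 7.62 with HRG, against 5.96, 6.12 and 5.98 with vehicle, an effect of 1.48 ± 0.11 (SE), adjusted p = 8.6e-10, and of 18 Eph and ephrin genes EFNB2 (1.24), EFNA5 (0.98) and EPHA4 (0.69) rose too and EFNA3 (-0.65) fell. MET, the hepatocyte growth factor receptor, stood at 5.12, 4.96 and 5.23 with HRG, against 3.91, 3.93 and 4.10 with vehicle, an effect of 1.12 ± 0.095 (SE), adjusted p = 6.09e-09, one of 6 of 22 MET, semaphorin and plexin genes that rose, with SEMA7A (0.91), PLXNA3 (0.80), MST1R (0.79), SEMA3B (0.74) and SEMA4B (0.71), and 7 rose without the third HRG array. TGFB2 stood at 9.81, 10.07 and 10.32 with HRG, against 8.35, 8.32 and 8.25 with vehicle, an effect of 1.76 ± 0.13 (SE), adjusted p = 6.06e-10. Of 22 TGF-β and activin genes SMAD3 rose with it (0.98), and without the third HRG array 1 member fell, and of 19 BMP and ID genes ID1 (0.93), BAMBI (0.88), ID3 (0.78) and ID2 (0.61) rose. Of 19 Notch pathway genes NOTCH1 (0.81) and JAG2 (0.68) rose and MAML2 (-1.15) and HEY2 (-0.83) fell. LYN led 5 of 19 Src family and protein kinase C genes with focal adhesion partners that rose, at 8.92, 8.83 and 8.94 with HRG, against 6.76, 6.85 and 6.94 with vehicle, an effect of 2.05 ± 0.12 (SE), adjusted p = 3.05e-11, and PRKCE (-0.78) fell. Among 22 Rac exchange factors DOCK5 (1.18) rose and SOS1 (-0.91) and ARHGEF6 (-0.87) fell. PREX1 stood at 9.53, 9.52 and 9.30 with HRG, against 10.52, 10.36 and 10.39 with vehicle, an effect of -0.97 ± 0.075 (SE), adjusted p = 1.33e-09, with no overlap of groups.

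**Figure D3:**
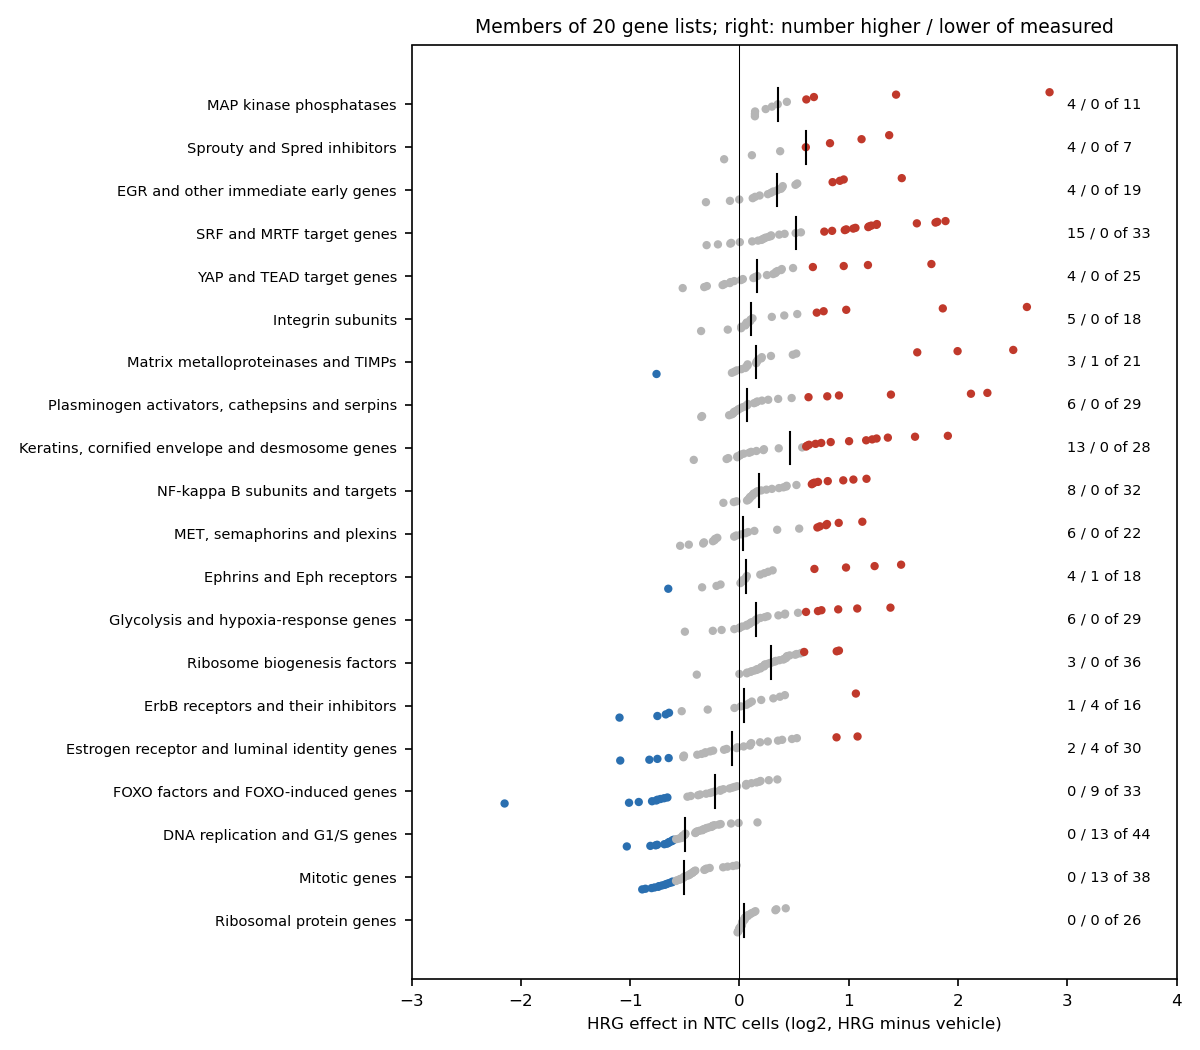
HRG effect in NTC cells (log2, HRG minus vehicle, horizontal axis) of every measured member of 20 gene lists, 1 point per gene at its brightest probe set, red where it rose, blue where it fell and grey where it was not called. The black bar is the list's median. At the right stand the number that rose and fell of the number measured, from 15 of 33 rising SRF and MRTF targets to 13 of 38 falling mitotic genes and no call among 26 ribosomal protein genes.

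Genes of the estrogen receptor program moved in both directions. Of 30 estrogen receptor and luminal identity genes 4 fell (13.3%) and 2 rose (6.7%), with a median of -0.07. Over all probe sets 3.37% fell and 2.64% rose. ESR1, estrogen receptor α, stood at 8.40, 8.62 and 8.28 with HRG, against 9.53, 9.52 and 9.51 with vehicle, an effect of -1.09 ± 0.083 (SE), adjusted p = 1.07e-09, while a second, dim ESR1 probe set was at 5.27, 5.28 and 5.12 with HRG, against 5.25, 5.17 and 5.42 with vehicle, and was not called. PGR, the progesterone receptor and a target of ESR1, stood at 10.12, 10.13 and 9.71 with HRG, against 10.89, 10.85 and 10.70 with vehicle, an effect of -0.82 ± 0.10 (SE), adjusted p = 1.67e-06. The third HRG array was the lowest for both genes. The rising members were IRS1 (1.08) and CCND1 (0.89), an adaptor of insulin receptors and cyclin D1. The lineage factors GATA3 and FOXA1 had effects of -0.02 (adjusted p = 0.822) and 0.10 (adjusted p = 0.29), and the estrogen targets GREB1 and TFF1 had effects of -0.27 and 0.48, both under 1.5-fold.

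Of 33 FOXO factors and genes that FOXO proteins induce, 9 fell and none rose (median -0.23). KLHL24 led the list, followed by YPEL2 (-1.01), CREBRF (-0.92), YPEL3 (-0.80), TNFSF10 (-0.76), ERBB3 (-0.75), RBL2 (-0.72), BCL6 (-0.69) and FBXO32 (-0.66), and 10 fell without the third HRG array. CREBRF, a regulator of CREB3 turnover, stood at 6.36, 6.49 and 6.26 with HRG, against 7.30, 7.21 and 7.36 with vehicle, an effect of -0.92 ± 0.098 (SE), adjusted p = 1.77e-07. TNFSF10, the death ligand TRAIL, stood at 9.39, 9.67 and 9.10 with HRG, against 10.09, 10.27 and 10.08 with vehicle, an effect of -0.76 ± 0.12 (SE), adjusted p = 2.58e-05. FOXO1 and FOXO3 had effects of 0.06 (adjusted p = 0.504) and -0.02 (adjusted p = 0.857), and IRS2 and PIK3IP1, commonly used FOXO targets, had effects of 0.16 (adjusted p = 0.15) and -0.15 (adjusted p = 0.269). Of 21 core clock genes NR1D2 (-1.71) and PER3 (-0.83) fell and CRY1 (0.68) and BMAL2 (0.59) rose. None of 17 BCL2 family members was called, and of 25 G1 cyclins and CDK inhibitors CCND1 (0.89) rose and RBL2 (-0.72) fell, with CDKN1B at -0.25 ± 0.074 (SE), adjusted p = 0.0121 and CDKN1A at 0.50 ± 0.099 (SE), adjusted p = 0.000361.

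Proliferation genes were lower with HRG at 6 h. Of 44 DNA replication and G1/S genes 13 fell and none rose, and 39 were lower at adjusted p under 0.05 whatever the fold (median -0.50). Of 38 mitotic genes 13 fell, none rose and 33 were lower by adjusted p alone (median -0.51). Most effects lay close to the 1.5-fold limit. BRCA1, of homologous recombination, stood at 7.49, 7.59 and 6.95 with HRG, against 8.38, 8.41 and 8.34 with vehicle, an effect of -1.03 ± 0.13 (SE), adjusted p = 1.17e-06. MCM3, a subunit of the replicative helicase, stood at 9.64, 9.74 and 9.52 with HRG, against 10.33, 10.43 and 10.39 with vehicle, an effect of -0.75 ± 0.065 (SE), adjusted p = 7.32e-09. PCNA, the sliding clamp of DNA polymerases, stood at 9.99, 10.08 and 9.92 with HRG, against 10.62, 10.76 and 10.67 with vehicle, an effect of -0.69 ± 0.075 (SE), adjusted p = 2.28e-07. Groups did not overlap in any of these, and the third HRG array was the lowest in all. NDC80, of the outer kinetochore, stood at 7.94, 8.05 and 7.62 with HRG, against 8.75, 8.77 and 8.76 with vehicle, an effect of -0.89 ± 0.12 (SE), adjusted p = 6.88e-06. FOXM1, a transcription factor of mitotic genes, stood at 9.34, 9.30 and 9.18 with HRG, against 9.95, 9.97 and 9.87 with vehicle, an effect of -0.66 ± 0.068 (SE), adjusted p = 1.17e-07. The replication genes that fell also included CLSPN (-0.82), POLA2 (-0.77), PRIM1 (-0.66), CHAF1B (-0.65), GINS1 (-0.65), RFC4 (-0.64), MCM6 (-0.62), E2F1 (-0.61), ORC1 (-0.61) and POLE2 (-0.60), where a second CLSPN probe set (-0.48) was not called. The other mitotic genes that fell were HMMR (-0.86), TTK (-0.80), BUB1B (-0.78), CDC25C (-0.74), ASPM (-0.74), KIF20A (-0.71), NUF2 (-0.69), CENPE (-0.67), DLGAP5 (-0.64), CENPF (-0.62) and KIF4A (-0.61). MKI67 (-0.48), CDK1 (-0.45), CCNB1 (-0.31) and TOP2A (-0.52) were lower by adjusted p alone. Without the third HRG array, 7 replication genes (median -0.43) and 7 mitotic genes (median -0.43) were called, and none rose. The part of that array in the difference was not tested further. Fewer cells in these phases and less RNA per cell cannot be told apart in bulk RNA.

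E2F sites of the forms TTTCCCGC and TTTGGCGC, on either strand, stood in the 250 upstream bases of 16 of 40 DNA replication and G1/S genes (40.0%), in 4 of the 13 of these that fell (30.8%), and in 17 of 551 falling genes (3.09%), 4 of 387 rising genes (1.03%) and 372 of 14208 genes tested (2.62%). Many members of the list are known E2F targets, so its share is a description. The stretches of E2F1, which regulates its own gene, and of PCNA are given because both fell and hold 1 site near the start (12 and 51 bases from it), in capitals.
E2F1, chr20:33686386-33686635, minus strand: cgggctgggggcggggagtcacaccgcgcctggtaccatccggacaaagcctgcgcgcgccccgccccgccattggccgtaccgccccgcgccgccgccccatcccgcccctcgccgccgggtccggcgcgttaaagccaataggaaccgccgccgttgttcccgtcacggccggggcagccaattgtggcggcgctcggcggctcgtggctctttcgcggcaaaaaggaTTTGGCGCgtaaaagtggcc
PCNA, chr20:5126623-5126872, minus strand: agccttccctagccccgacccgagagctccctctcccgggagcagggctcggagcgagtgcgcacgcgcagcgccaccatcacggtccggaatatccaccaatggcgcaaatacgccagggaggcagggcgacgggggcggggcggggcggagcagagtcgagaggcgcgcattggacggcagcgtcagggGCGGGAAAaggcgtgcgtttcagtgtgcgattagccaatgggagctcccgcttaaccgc

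Other motifs searched in the same 250 bases on both strands were the FOXO site TGTTTAC, the TEAD site GGAATG and the CCAAT box. The FOXO site stood in 4 of 30 FOXO factors and FOXO-induced genes (13.3%) but in 0 of the 7 of these that fell and have a promoter in the table, and in 9 of 551 falling genes (1.63%), 5 of 387 rising genes (1.29%) and 295 of 14208 genes tested (2.08%). The TEAD site stood in 6 of 17 YAP and TEAD targets (35.3%), 43 of 387 rising genes (11.1%), 74 of 551 falling genes (13.4%) and 1418 of 14208 genes tested (9.98%). The CCAAT box stood in 115 of 387 rising genes (29.7%), 227 of 551 falling genes (41.2%) and 4895 of 14208 genes tested (34.5%).

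Some metabolic and growth genes were called, next to 2.64% rising and 3.37% falling over all probe sets. The falling share of sterol and fatty acid genes (3.8%) lay close to that. So, less closely, did the shares of retinoic acid genes (5.6% each way) and ATF4 genes (6.9% each way), which rest on 1 or 2 genes. Of 29 glycolysis and hypoxia-response genes 6 rose and none fell: PFKP (1.38), EGLN3 (1.08), ENO2 (0.90), HK2 (0.75), SLC2A1 (0.72) and VEGFA (0.61), and 5 rose without the third HRG array. PFKP, the platelet-type phosphofructokinase, stood at 10.42, 10.41 and 10.44 with HRG, against 9.02, 9.07 and 9.04 with vehicle, an effect of 1.38 ± 0.064 (SE), adjusted p = 7.43e-13. Of 15 glycerolipid enzymes GPAT3, LPIN1 (1.13) and MGLL (0.66) rose, and of 26 sterol and fatty acid synthesis genes INSIG2 (-0.69) fell. Of 36 ribosome biogenesis factors 3 rose, RRP12 (0.91), RRS1 (0.89) and LYAR (0.59), and 27 were higher by adjusted p alone (median 0.29), with 2 rising without the third HRG array, while none of 26 ribosomal protein genes was called (median 0.04). Among ATF4 and amino acid response genes the transporters SLC7A1 (0.89) and SLC7A5 (0.68) rose and the enzymes PSPH (-0.77) and CTH (-0.68) of serine and cysteine synthesis fell, of 29, and none of 17 unfolded protein response genes was called. In the prostaglandin pathway PTGER2 (1.49), a receptor of prostaglandin E2, rose with SLCO2A1 (0.62) and PLA2G4A (-1.10), the cytosolic phospholipase A2, fell, of 18. The retinaldehyde dehydrogenase ALDH1A3 (1.64) rose and DHRS3 (-0.60) fell among 18 retinoic acid genes, and a dimmer ALDH1A3 probe set was at 0.03. Of 22 p53 targets 3 rose, PLK2 (0.99), AEN (0.83) and PLK3 (0.64), and 2 fell, TP53INP1 (-0.87) and DDB2 (-0.74), with 2 rising without the third HRG array. None of 12 core histone genes was called.

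Because NTC cells carry a double-stranded RNA, interferon genes and sensors of such RNA were looked at separately. The cells with HRG and with vehicle both carry it, so the HRG effect cannot show a response to the RNA itself. Of 33 interferon-stimulated genes GBP2 (1.27), IRF1 (0.72), IFIT5 (0.67) and ISG20 (0.66) rose and MX2 (-0.69) fell (median 0.03), with 3 rising without the third HRG array, and in parental cells 4 rose and 2 fell. ISG15 and IFIT1 had effects of 0.05 (adjusted p = 0.68) and -0.15 (adjusted p = 0.826). Of 21 sensors and RNA interference factors AGO2 (0.62) rose and none fell, and without the third HRG array or with array medians subtracted none was called.

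Whether transfected control cells answered HRG as untransfected cells do was asked gene by gene. The difference between the effects, NTC minus parental, passed the adjusted threshold of limma for 0 of 21042 probe sets (0%), with a smallest adjusted p of 0.603, and 1727 (8.21%) had an unadjusted p under 0.05. This does not show that the responses were equal, since the SE of a difference was 0.18 to 0.35 for the 10 genes below. Those genes were picked for large differences, so this range does not hold for all probe sets. Of the 555 probe sets that rose in NTC cells 107 were not called in parental cells. All 107 had the same sign there and 103 an adjusted p under 0.05, with medians of 0.64 in NTC and 0.49 in parental cells. Of the 709 that fell 298 were not called in parental cells, 297 with the same sign and 264 with an adjusted p under 0.05, with medians of -0.67 in NTC and -0.46 in parental cells. These sets were picked by their NTC values, which favours larger effects in NTC cells. In turn 153 rising and 96 falling probe sets were called in parental cells only, where calls numbered 2.86% higher and 2.41% lower of all tested and adjusted p alone passed 13.5% and 17.3%, and none was called in opposite directions.

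**Figure D4:**
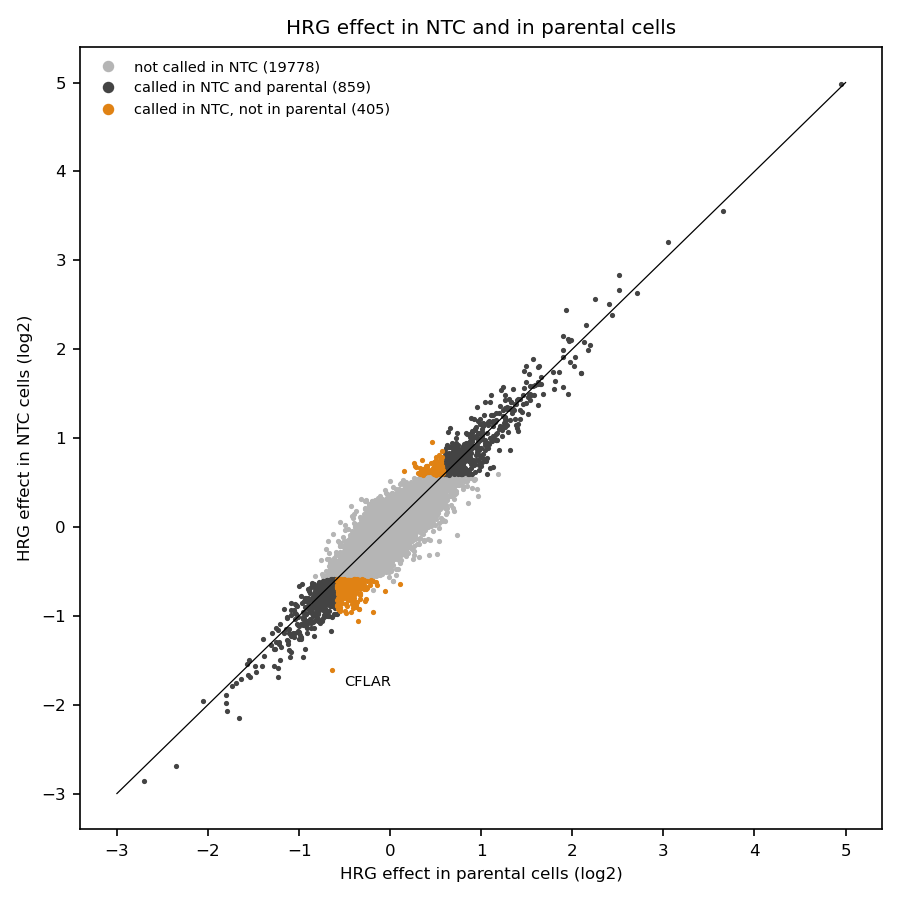
HRG effect in NTC cells (log2, vertical axis) against that in parental cells (log2, horizontal axis) for the 21042 probe sets, 1 point each, with the line of equal effects. The 405 probe sets called in NTC and not in parental cells (orange) lie mostly next to the fold limit, with 1 probe set of CFLAR farthest below it, and the 859 called in both (black) follow the line on both sides of 0.

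The called genes with the largest differences from parental cells all fell further in NTC cells, and none of these differences passed the test. The first was a probe set of CFLAR, at 6.48, 6.33 and 5.15 with HRG, against 7.58, 7.72 and 7.48 with vehicle, in NTC cells, and 6.76, 6.73 and 6.43 with HRG, against 7.46, 7.36 and 7.03 with vehicle, in parental cells. The difference was -0.96 ± 0.35 (SE), and the third HRG array of NTC cells was far below the other arrays of its group. Without that array it was -0.55, and the brightest CFLAR probe set had effects of -0.56 in NTC and -0.41 in parental cells. ZNF587, a zinc finger gene, was at 6.22, 5.85 and 6.01 with HRG, against 6.78, 7.04 and 7.11 with vehicle, in NTC cells, and 6.52, 6.41 and 6.45 with HRG, against 6.87, 6.69 and 6.39 with vehicle, in parental cells. Its difference was -0.76 ± 0.20 (SE), and -0.75 without that array. CEP162, a centriolar protein of cilium assembly, differed by -0.66 ± 0.18 (SE), and SNORD116-13, a small nucleolar RNA of an imprinted cluster, by -0.76 ± 0.20 (SE). SNORD116-13 was dim and its fall in NTC cells was not called without the third HRG array. The other 6 were ZNF204P, DEPDC4, KRCC1, MTBP, CLSPN and MMP16 (its dimmer probe set), with differences between -0.71 and -0.53, and between -0.48 and -0.34 without that array.

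**Figure D5:**
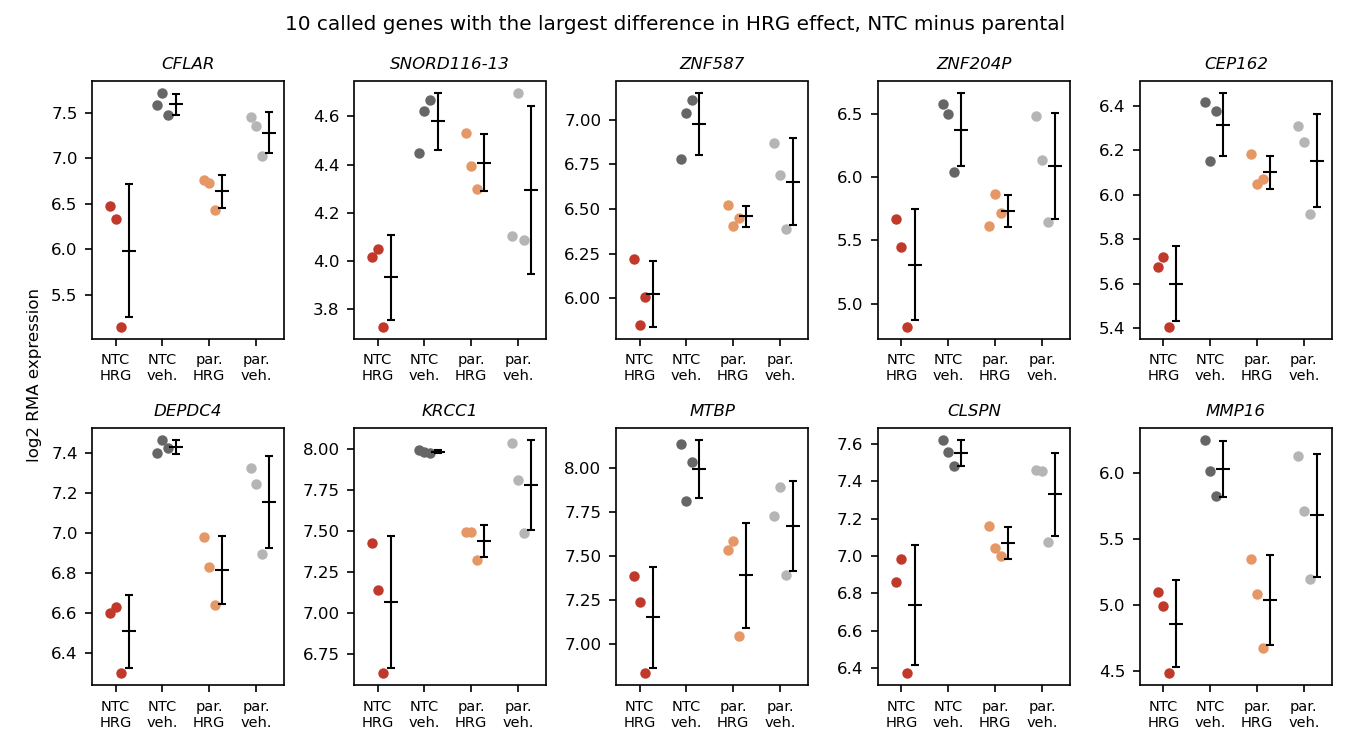
Log2 RMA expression (vertical axis, scaled per gene and not starting at 0) of the 10 called genes with the largest difference in HRG effect, NTC minus parental, in 3 arrays each of NTC cells with HRG and vehicle (veh.) and parental (par.) cells with HRG and vehicle, with the mean ± SD beside each group. The third NTC array with HRG is the lowest of its group for all except ZNF587, and the third parental vehicle array is the lowest of its group for all 10.

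The proliferation lists held more falling genes in NTC than in parental cells, with 13 falling replication genes in NTC cells and 9 in parental cells, and 13 falling mitotic genes in NTC cells and 5 in parental cells, while the medians were -0.50 in NTC and -0.40 in parental cells for replication and -0.51 in NTC and -0.38 in parental cells for mitosis. Without the third HRG array of NTC cells 7 replication and 7 mitotic genes fell. The 7 replication genes are fewer than the 9, and the 7 mitotic genes more than the 5, called in parental cells with all arrays. The third parental vehicle array is also 1 of the 4 with the highest scores on the second component (13.86), and parental counts without it are not given. No member's difference passed the test. Of other lists, 15 SRF and MRTF targets rose in NTC and 14 in parental cells, 13 keratin and envelope genes rose in NTC and 12 in parental cells, 8 NF-κB genes rose in each, and 9 FOXO genes fell in NTC and 8 in parental cells. Of BMP and ID genes 4 rose in NTC and 2 in parental cells, of ribosome biogenesis factors 3 rose in NTC and 5 in parental cells, and of MET, semaphorin and plexin genes none fell in NTC and 2 in parental cells. All 20 of the largest rises and 19 of the 20 largest falls were called in parental cells, the exception being the CFLAR probe set.

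Against cells with a P-Rex1 duplex, the HRG effect in NTC cells differed at 42 probe sets for #1 (0.2%) and 186 for #2 (0.884%), both differences using the same 6 NTC arrays. Over the 555 probe sets that rose in NTC cells, chosen on their NTC values, the median effect was 0.80 in NTC cells, 0.80 in parental cells, 0.69 with #1 and 0.45 with #2, and over the 709 that fell it was -0.73 in NTC cells, -0.62 in parental cells, -0.46 with #1 and -0.39 with #2. Of the 20 largest rises, 2 differed from #1 and 17 from #2, and of the 20 largest falls 2 differed from #1 and 9 from #2. MMP10 had a difference of 0.72 (adjusted p = 0.155) from #1 and 2.08 (adjusted p = 0.000119) from #2. RAET1L differed from both, by 1.21 (adjusted p = 0.0028) from #1 and 1.20 (adjusted p = 0.000273) from #2. DUSP6 differed from neither at the threshold, by -0.22 (adjusted p = 0.721) from #1 and 0.19 (adjusted p = 0.854) from #2, nor did ITGB6, by 0.14 (adjusted p = 0.606) from #1 and 0.35 (adjusted p = 0.287) from #2. The count for #1 depended on the arrays used, with 14 called without the third NTC array with HRG.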

How the data were processed

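The authors deposited log2 expression values of 28536 probe sets on 24 arrays, normalized together by RMA with the simpleaffy package (version: not given in the sources used here). Columns were assigned to samples by their names, and 0 were left over. Symbols came from the platform annotation (1 symbol for 19292 probe sets, several for 1750, none for 7494), of which 19261 matched RefSeq by gene ID. Genes are described by their brightest single-symbol probe set. limma 3.58.1 (R 4.3.3) fitted 1 mean per group over 24 arrays and 8 groups, with moderated variance, and p-values were Benjamini-Hochberg adjusted over 21042 probe sets. The methods call the replicates biological. The methods' test, Rank Products, is an alternative (unadjusted p under 0.005, over 1.5-fold, 9 pairs of arrays). Named genes are the 20 largest rises and falls, the 10 called genes with the largest difference from parental cells, and members of the lists. The code was checked on simulated data. The members and lists were chosen with earlier results of these data known. Upstream sequences and the microRNA came from RefSeq tables of GRCh38.p14.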

Additional observations from a re-analysis of the deposited data

Results flagged for a closer look

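Among the 20 largest rises and 20 largest falls in NTC cells, the HRG effect differed from that with a P-Rex1 duplex by a limma interaction test (adjusted p under 0.05 over all probe sets and over 1.5-fold) in the genes named here, given as the effect in NTC cells minus the effect with the duplex on the log2 scale. Against P-Rex1 RNAi #1 the rise was larger in NTC cells for LOC151760 (1.09) and RAET1L (1.21), and the fall for BLNK (-0.71) and STEAP4 (-1.14). Against P-Rex1 RNAi #2 the rise was larger in NTC cells for GLIPR1 (1.96), SYTL2 (1.48), GPAT3 (1.41), ANXA1 (0.96), MMP10 (2.08), LOC151760 (1.40), MAP1B (1.39), SERPINA3 (1.49), SPNS2 (1.23), SERPINB8 (0.96), EPGN (1.35), IL6R (1.02), LYN (1.07), MMP1 (1.79), TNS4 (1.33), RAET1L (1.20) and SPRR1A (1.37), and the fall for CAB39L (-0.89), DLG2 (-0.90), PLEKHS1 (-1.08), TENM2 (-0.62), AKAP6 (-0.68), NR1D2 (-0.70), BLNK (-0.95), STEAP4 (-1.38) and ANK3 (-0.64). Both differences use the same NTC arrays, and the genes were chosen by their effect in those arrays.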

How the results depend on the processing

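The 5 counts of calls and the effects of 54 named genes were recomputed with 1 choice changed at a time. The reported counts were 555 probe sets rising, 709 falling, 0 differing from parental cells, 42 differing from P-Rex1 RNAi #1 and 186 from #2. Without the fold threshold they were 2867, 3702, 0, 135 and 529, and with a fold over 2 they were 168, 100, 0, 7 and 35. Leaving out 1 NTC array at a time gave 530 to 575 rising, 571 to 859 falling, 0 differing from parental cells, 14 to 83 from #1 and 147 to 233 from #2. The count for #1 was also 93 with the replicate block, 12 with the arrays of the 2 cell types alone, 88 with robust variance and array weights and 166 with array medians subtracted. It was 9 without the 4 arrays with the highest scores on the second component, an alternative chosen after seeing the data, where 534 probe sets rose and 572 fell. The cause was not tested. Rank Products, the test the methods name, was run on rising and falling calls alone. It used their unadjusted p under 0.005, so that test and criterion change together, and kept the 1.5-fold limit. It called 557 rising and 713 falling. Because the fold limit is shared, the closeness to 555 and 709 does not show that the 2 tests call the same probe sets. Whether the replicate numbers pair the NTC samples cannot be decided with 3 arrays per group. Deviations from the group means correlated weakly, at 0.14, 0.04 and 0.24, over same-numbered HRG and vehicle arrays. The second HRG array correlated best with the first vehicle array (0.165), and all other differently numbered pairs correlated negatively, down to -0.237. In the principal component analysis of all arrays, scores on the first component rose with replicate number in every group except parental vehicle. In NTC cells they rose from 21.5 to 27.5 with HRG and from -18.7 to -17.6 with vehicle. The replicate block gave 556 rising and 711 falling, with all 1264 reported calls among them, and 0 and 219 differing from parental cells and from #2. Of 754 values of 54 named genes 748 kept direction and call, and SNORD116-13 missed the fold limit without the third HRG array and without the 4 arrays (-0.54 in both). ERBB2, never called, turned to -0.038 with array medians subtracted and to -0.008, -0.006 and -0.005 without HRG replicate 1, HRG replicate 2 and vehicle replicate 3, and ranged from -0.008 to 0.049 over all NTC arrays left out in turn. With no counts on arrays, 3 per group set the precision, and RMA understates changes of dim probe sets.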

Other observations

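Groups of non-coding RNA genes were picked after their values were seen and are given as counts. Of 175 small nucleolar RNA genes with a single-symbol probe set 11 rose and 1 fell in NTC cells (median 0.13), and 24 rose and none fell in parental cells (median 0.17). Without the third HRG array 14 rose and none fell. The vault RNAs VTRNA1-1 and VTRNA1-3, small RNAs of the vault particle, rose, 2 of 3 measured (median 0.82), and did so in parental cells too. Of 630 long non-coding RNA genes 10 rose and 17 fell (median 0.06), of 493 ZNF genes 8 rose and 12 fell (median 0.02), where 12 rose and 4 fell in parental cells and 9 rose and 9 fell in NTC cells without the third HRG array, and of 375 solute carrier genes 13 rose and 16 fell (median 0.03), next to 2.64% rising and 3.37% falling over all probe sets.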
